A study of Mus musculus with 12 samples.

Results

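MAX binding after 4 h with RANKL and the bromodomain inhibitor I-BET together was compared with MAX binding after 4 h with I-BET alone, in RAW264.7 cells. The members are the peaks of both deposited MAX ChIP-seq lists, 6307 with RANKL and I-BET and 36785 with I-BET, together 43092 of the 63578 peaks in all 8 deposited lists. A peak of the I-BET list that shared at least 1 bp with a peak of the combination list is called kept here. Of the 36785 I-BET peaks 6018 were kept, or 16.4% (exact Clopper-Pearson 95% interval 16.0% to 16.7%), and 30767 were not.

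RAW264.7 is an established mouse macrophage line, and the labels describe it as monocyte-derived with bone marrow as the source. Combination cells received RANKL at 50 ng/ml with I-BET at 500 nM, and the cells set against them received I-BET at 500 nM without RANKL. No genetic change is named for either group. Untreated cells and cells given RANKL at 50 ng/ml alone, each with 1 MAX list and 1 MYC list, served to sort the peaks of both lists, as did the MYC lists of the I-BET and combination cells. There is 1 MAX library a side, so no difference between the treatments has a replicate check or a p-value, and shares are given with intervals that cover counting error only, since peaks are not replicates. The I-BET list is the longest of the 4 MAX lists, with 36785 peaks against 8839 untreated, 10889 with RANKL and 6307 with the combination. Read depths are unknown from the peak lists. Less binding, weaker enrichment or fewer reads in the combination library, and more reads or looser calling in the I-BET library, cannot be told apart. The line's identity was not checked, since peak positions of MAX do not measure expression.

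MAX is a basic helix-loop-helix leucine zipper protein. It forms pairs with the growth regulator MYC, with the repressors MXD, MNT and MGA, and with itself, and these pairs recognise the E-box CACGTG and related letters, mostly at promoters. I-BET compounds fill the bromodomains of the BET proteins, readers of acetylated histones that help to sustain transcription of many genes, MYC among them. RANKL is the TNF-family cytokine that turns macrophage precursors into osteoclasts, the cells that resorb bone.

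Promoters of 7 genes are shown first, to let the E-box be seen beside kept peaks and peaks not kept. They were picked for their motifs after these were seen and are not typical: of all promoter windows under both peaks 20.8% held CACGTG and 3.03% held 2 or more copies. Each sequence runs 5′ to 3′ from 200 bases before the RefSeq start through 30 bases from the start onward (RefSeq, GRCm38.p6), and capitals mark the E-box CACGTG and its variant, which is CACGCG on one strand and CGCGTG on the other. Apex1, a DNA repair endonuclease, Cdk4, a kinase of the G1 phase, Lamp1, a lysosomal membrane protein, and Max itself had a kept peak. Clcn7, the lysosomal chloride and proton exchanger needed for bone resorption, Adsl, an enzyme of purine synthesis, and Irf8, a macrophage factor that restrains osteoclast formation, had an I-BET peak that was not kept.
Apex1, chr14:50924749-50924978, plus strand, kept: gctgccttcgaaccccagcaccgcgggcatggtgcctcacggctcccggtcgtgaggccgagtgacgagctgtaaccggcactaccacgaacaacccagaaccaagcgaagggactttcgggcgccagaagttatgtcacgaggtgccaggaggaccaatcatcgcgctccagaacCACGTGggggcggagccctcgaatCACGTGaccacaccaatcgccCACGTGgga
Cdk4, chr10:127063335-127063564, plus strand, kept: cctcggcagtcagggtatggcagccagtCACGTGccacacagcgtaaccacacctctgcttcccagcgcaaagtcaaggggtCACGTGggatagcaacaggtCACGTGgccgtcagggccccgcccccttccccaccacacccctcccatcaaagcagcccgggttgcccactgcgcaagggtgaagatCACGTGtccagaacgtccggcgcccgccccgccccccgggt
Lamp1, chr8:13158961-13159190, plus strand, kept: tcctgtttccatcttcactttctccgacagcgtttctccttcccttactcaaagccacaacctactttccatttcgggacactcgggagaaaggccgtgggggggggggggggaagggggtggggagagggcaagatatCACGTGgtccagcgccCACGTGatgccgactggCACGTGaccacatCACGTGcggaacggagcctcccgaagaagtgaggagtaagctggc
Max, chr12:76962219-76962448, minus strand, kept: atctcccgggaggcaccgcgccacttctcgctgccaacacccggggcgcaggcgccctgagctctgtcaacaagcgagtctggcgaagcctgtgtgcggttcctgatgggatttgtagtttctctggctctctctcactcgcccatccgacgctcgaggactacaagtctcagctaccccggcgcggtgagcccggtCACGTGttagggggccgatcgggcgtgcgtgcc
Clcn7, chr17:25133191-25133420, plus strand, not kept: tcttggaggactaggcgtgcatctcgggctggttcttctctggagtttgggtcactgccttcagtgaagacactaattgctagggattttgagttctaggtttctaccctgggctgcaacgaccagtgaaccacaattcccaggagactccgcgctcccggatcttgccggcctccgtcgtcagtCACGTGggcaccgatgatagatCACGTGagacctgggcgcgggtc
Adsl, chr15:80948290-80948519, plus strand, not kept: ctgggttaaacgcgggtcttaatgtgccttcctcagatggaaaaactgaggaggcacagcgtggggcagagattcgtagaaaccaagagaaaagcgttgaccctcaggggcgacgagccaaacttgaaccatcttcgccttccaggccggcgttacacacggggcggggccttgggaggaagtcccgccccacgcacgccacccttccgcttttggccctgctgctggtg
Irf8, chr8:120736158-120736387, plus strand, not kept: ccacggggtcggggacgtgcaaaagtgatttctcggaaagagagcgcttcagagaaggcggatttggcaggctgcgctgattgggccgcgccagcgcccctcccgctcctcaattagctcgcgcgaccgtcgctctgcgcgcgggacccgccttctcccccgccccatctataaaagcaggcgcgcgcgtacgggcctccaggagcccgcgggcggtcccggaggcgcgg

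All 3 copies of CACGTG in the Apex1 window lay inside the combination peak, the first starting 24 bases before the start. The 4 copies at Cdk4 began 172, 118, 98 and 11 bases before the start, and the 4 at Lamp1 began 61, 45, 28 and 15 bases before it, again all inside the combination peak. The single copy at Max began 3 bases before the start and also lay inside the peak. The Clcn7 window also holds 2 copies, and its I-BET peak, at rank 4894, was not kept. The Adsl and Irf8 windows hold none of the capitalised letters.

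The combination list was almost wholly contained in the I-BET list. Of its 6307 peaks 6246 overlapped an I-BET peak (99.0%, interval 98.8% to 99.3%). Only 61 did not, and they were narrow, with a median width of 322 bp, and low in the combination list, with a median rank of 5069 by the authors' score in column 5. Of these 61 peaks 36 overlapped a peak of the untreated MAX list and 41 a peak of the RANKL list, while 4 lay within 1 kb of an annotated end of a protein-coding gene, 21 inside a gene, 7 within 10 kb of one and 29 farther away. The 4 at gene ends were at Slc18a1, a vesicular monoamine transporter, H1f3, a linker histone, Derl1, a channel component of protein export from the endoplasmic reticulum, and Sf3b4, a subunit of the U2 snRNP, with combination ranks 5035, 5294, 5572 and 6001. Each of these genes also had a different I-BET peak at an end, so no gene had a combination peak alone.

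Whether an I-BET peak was kept went with its rank. Ranks run from the highest score down, and ranks or scores of different lists are not compared as sizes, since the lists differ in length. All of the 100 top I-BET peaks were kept (100 of 100), 991 of the top 1000 were kept (99.1%) and 5185 of the top 10000 (51.9%). When the ranked list was cut into 10 deciles of equal size, the kept share was 84.8%, 41.8%, 18.4%, 8.89% and 3.94% over the first 5 deciles, and 0.408% in the last. The kept peaks had a median rank of 3483 and the others one of 21258. Against an I-BET list cut to its top 6307 peaks, equal in length to the combination list, 4324 were kept, or 68.6%. Of the 30461 ranked peaks below that point 1677 were kept (5.51%). The order within the shared set was related but not the same: across 5722 one-to-one pairs of overlapping peaks Spearman's rho between ranks was 0.56, given as a description across peaks.

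**Figure D1:**
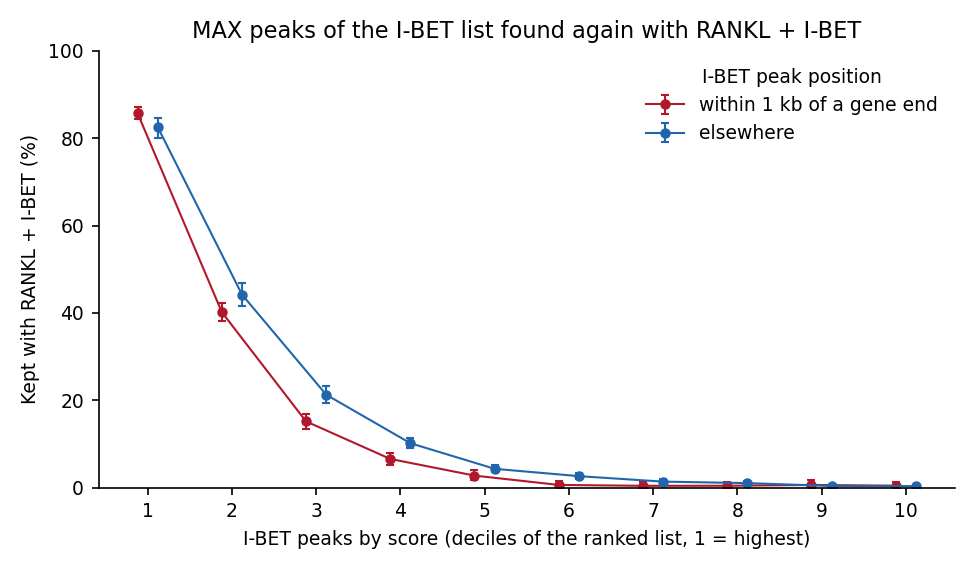
Share of I-BET MAX peaks kept with RANKL and I-BET (vertical axis, %) by decile of the I-BET list ranked by score, 1 being the highest (horizontal axis), for peaks within 1 kb of a gene end (red) and elsewhere (blue), with exact 95% intervals. The share was 85.7% and 82.5% in the first decile and at most 1.42% in either class from the seventh decile on.

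The 10 highest-ranked kept peaks at a gene end held the 10 first ranks of the I-BET list. They lay at Ipo13, a nuclear import and export receptor, Gorab and Golga5, both Golgi proteins, Ankle2, a nuclear envelope protein, Apex1 with its neighbour Osgep, a tRNA-modifying enzyme, Rabggtb, a subunit of Rab prenyltransferase, Gga3 with Mrps7, a mitochondrial ribosomal protein, Pemt, an enzyme of phosphatidylcholine synthesis, Ncl, which encodes nucleolin, and Dzank1 with Polr3f, a subunit of RNA polymerase III. Their ranks in the combination list lay between 8 at Gorab and 105 at Golga5. The 10 highest-ranked peaks at a gene end that were not kept began only at rank 772, at Rbm43, which encodes an RNA-binding motif protein, and 808, at Naa35, a subunit of an N-terminal acetyltransferase. They went on through Wdr74, a ribosome assembly factor, at 866, Cr1l, a complement regulator, at 996, Yif1b, a protein of membrane traffic, at 1052, Kxd1, a part of the BORC complex of lysosome positioning, at 1100, Slc26a2, a sulfate transporter, at 1116, Tomm7, a subunit of the mitochondrial import pore, at 1117, Adsl at 1161 and the peak shared by Pecr, a peroxisomal reductase gene, and Tmem169 at 1166. All 10 overlapped a peak of the untreated or the RANKL list, 9 of them a peak of the untreated list.

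In addition, 17 I-BET peaks carried a deposited score of 0 and were given no rank. All 17 were kept, they were 811 to 2199 bp wide with a median of 1014 bp, and the combination peaks on them ranked from 2 to 93. Of these peaks 16 lay at a gene end, among them those of Polr2e, a subunit common to the RNA polymerases, Rpl21, a protein of the large ribosomal subunit, Hspa9, the mitochondrial HSP70, and Hadha with Hadhb, the trifunctional enzyme of fatty acid oxidation. No combination peak had a score of 0.

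The kept I-BET peaks were also the wide ones. Their median width was 981 bp (quartiles 696 and 1319 bp), against 423 bp (304 and 659 bp) for I-BET peaks that were not kept. The combination list itself was narrow, with a median of 415 bp (337 and 541 bp), against 480 bp over the whole I-BET list. In 5739 one-to-one pairs the combination peak was narrower in 5530 (96.4%), lay wholly inside the I-BET peak in 4982 (86.8%) and had a median of 0.479 times its width (quartiles 0.35 and 0.64). The centres of a pair were a median of 99 bp apart. A further 235 I-BET peaks held 2 or more combination peaks, at most 4.

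Width and score go together in the I-BET list, with a Spearman's rho of 0.7 across peaks. Within a decile of the ranked list the wider peaks were still kept more often, by 90.6% of the wider against 78.9% of the narrower peaks in the first decile. The values were 49.1% and 34.6% in the second decile, and 20.7% and 16.1% in the third. A wider peak also offers more bases to an overlap of 1 bp, and its part in these shares was not tested. When each peak had to cover at least 50% of the other, 7.17% of the I-BET peaks were kept. Few peaks lay close to the 1 bp limit itself. Of the kept peaks 14 shared fewer than 100 bp with the combination peak, with a smallest overlap of 8 bp. Of the peaks not kept 40 had a combination peak within 100 bp, the nearest 6 bp away, and 1553 had one within 1 kb (5.05%).

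**Figure D2:**
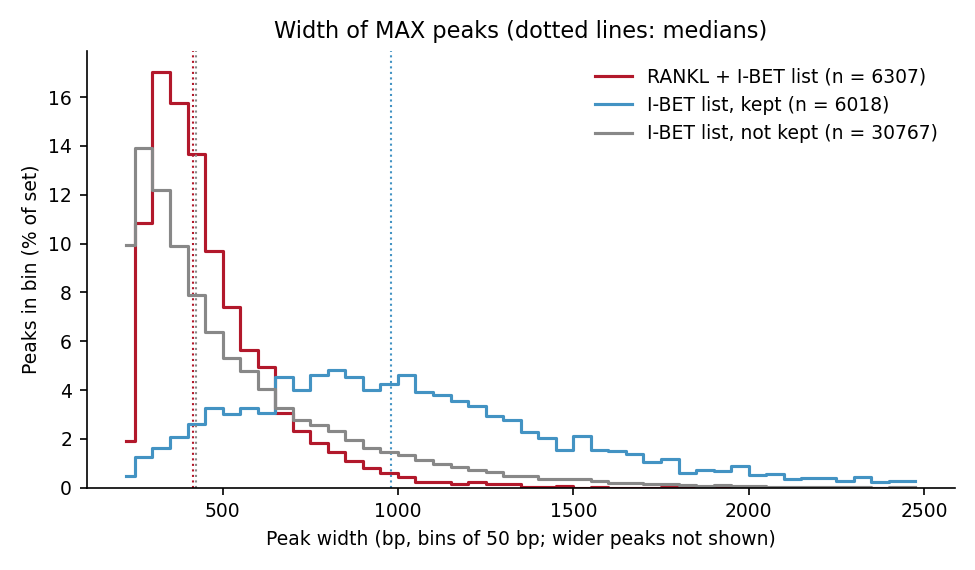
Width of MAX peaks (horizontal axis, bp, in bins of 50 bp) as a share of each set (vertical axis, %), for the RANKL and I-BET list (red), kept I-BET peaks (blue) and I-BET peaks not kept (grey), with dotted lines at the medians of 415, 981 and 423 bp. The blue curve is spread over wide peaks, while the red and grey curves are highest below 500 bp.

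Kept peaks lay at genes more often than the others. Within 1 kb of either annotated end of a protein-coding gene lay 58.7% of kept peaks (interval 57.5% to 60.0%) and 27.9% of peaks not kept. Inside genes were 24.8% of kept peaks and 42.3% of peaks not kept, and more than 10 kb from any gene were 10.1% and 17.5%. Read the other way, 29.2% of I-BET peaks at gene ends were kept, against 10.3% inside genes, 9.22% within 10 kb of a gene and 10.1% farther away. This contrast went with rank, because 70.9% of the first decile but 16.6% of the last decile of I-BET peaks lay at gene ends. Within the first decile 85.7% of gene-end peaks and 82.5% of the other peaks were kept. From the second to the eighth decile the order was the other way round, with 40.2% against 44.2% in the second decile and 15.2% against 21.3% in the third. Among the top 6307 I-BET peaks 68.3% of kept peaks and 64.3% of peaks not kept lay at gene ends.

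Where strand was known from RefSeq starts, the centre of the peak lay within 250 bp of a start for 41.1% of combination peaks, 39.1% of kept I-BET peaks and 14.3% of I-BET peaks not kept. Distances had medians of 781, 668 and 13000 bp in the same order. Among peaks centred within 1 kb of a start, combination peaks had a median position 21 bp before the start, while kept I-BET peaks were centred a median of 69 bp after it and I-BET peaks not kept 71 bp after it. Chromosome 18 has no start in the table used.

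**Figure D3:**
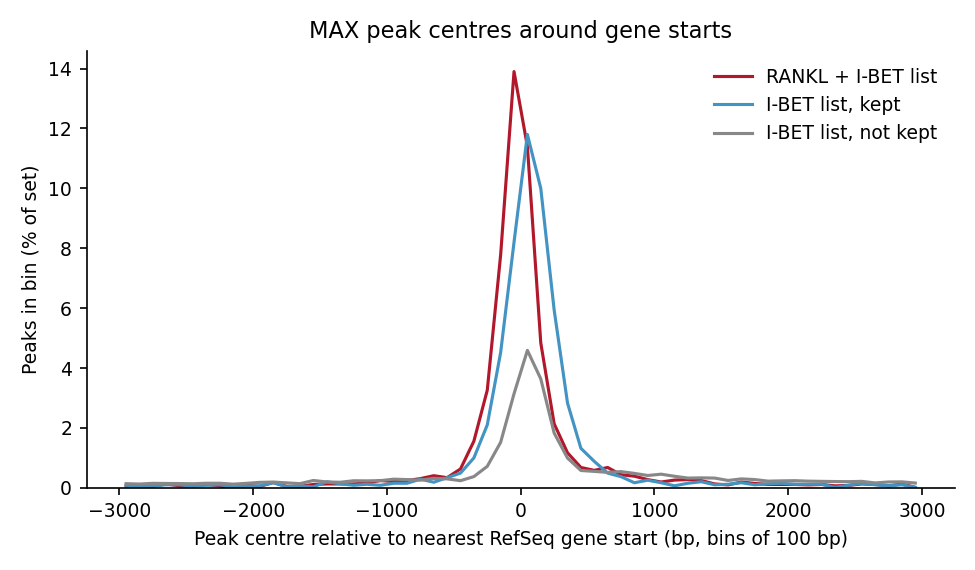
Share of peak centres (vertical axis, % of set) by position relative to the nearest RefSeq gene start (horizontal axis, bp, bins of 100 bp, positive values inside the gene), for the RANKL and I-BET list (red), kept I-BET peaks (blue) and I-BET peaks not kept (grey). The red curve is highest just before the start, the blue curve just after it, and the grey curve is lower throughout the central 500 bp.

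I-BET peaks at positions that also carried a MAX peak without the inhibitor were kept more often. The I-BET list contained 6962 peaks that overlapped both the untreated and the RANKL MAX lists, and 4804 of these were kept (69.0%). Of 1375 found with the untreated list alone 235 were kept (17.1%), and of 3263 found with the RANKL list alone 621 (19.0%). Of the 25185 I-BET peaks in neither list 358 were kept (1.42%). Kept peaks found with neither list had a median rank of 9488 and a median width of 751.5 bp. Conversely, 83.7% of kept peaks and 10.7% of peaks not kept overlapped the untreated list, and 90.1% and 15.6% overlapped the RANKL list.

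This held within deciles of the list, too. In the first decile 88.2% of I-BET peaks found in untreated cells were kept, while 20 of 76 peaks found with neither list were (26.3%). In the second decile the shares were 54.4% and 14.7%, and in the third 35.6% and 6.6%. In the eighth decile 14 of 80 peaks found in untreated cells were kept (17.5%) against 14 of 3509 found with neither list (0.399%). All 4 MAX lists were called from separate libraries, but how the calling was set for each is not given in the sources used here.

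Peaks of MYC, the growth-promoting partner of MAX, in untreated cells marked I-BET peaks that were kept. The 301 I-BET peaks with an untreated MYC peak on them had a median rank of 639.5, and 280 were kept (93.0%). With the MYC list of RANKL cells 271 of 291 were kept (93.1%). MYC peaks were few after the inhibitor: 136 with I-BET and 11 with the combination, against 312 untreated and 299 with RANKL. Of the 136 only 51 lay on an I-BET MAX peak (37.5%), against 99.4% of the untreated and 97.7% of the RANKL MYC peaks. All 11 I-BET peaks that overlapped the MYC list of combination cells were kept, and 19 of the 41 that overlapped the MYC list of I-BET cells were kept (46.3%). Within the first decile of the I-BET list 248 of 250 peaks with an untreated MYC peak were kept (99.2%), against 83.7% of those without one. With the MYC list of RANKL cells the shares there were 98.0% and 83.8%. Ranks within the decile were not matched, and their part in these shares was not tested. Of all top 1000 I-BET peaks, with a MYC peak or without, 99.1% were kept. The ranks of the 41 peaks under the MYC list of I-BET cells were not compared.

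At the level of genes, 4078 of 21887 protein-coding genes had a combination peak within 1 kb of an end and 11005 had an I-BET peak there. All 4078 were among the 11005, so 37.1% of genes with an I-BET peak were kept (interval 36.2% to 38.0%), and this is the background for every list of genes that follows. With RefSeq starts in place of gene ends 3411 of 9026 genes were kept (37.8%), and with the top 6307 I-BET peaks the share was 69.6%. Genes whose best I-BET peak was in the first decile were kept in 84.5% of cases (2673 of 3164), and genes below it in 17.8% (1390 of 7826). The latter share pools 40.4% in the second decile, 14.8% in the third and less in the rest, and no list was matched to it on rank. Of the genes that also had a peak in untreated cells 68.9% were kept, and of those without one 8.75%. A further 135 genes count as not kept although their I-BET peak met a combination peak beyond the 1 kb window, and those named here are marked as such.

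Genes for making ribosomes were kept at the highest share among lists of 10 or more genes with an I-BET peak. Of 56 ribosome biogenesis genes with an I-BET peak 48 were kept (85.7%), with a median I-BET rank of 1178.5 against 7072 for all genes with an I-BET peak. Ncl stood at rank 17 of the combination list and 9 of the I-BET list, Nop58, a core protein of box C/D snoRNPs, at 380 and 14, Rrp1b, a nucleolar assembly factor, at 648 and 53, and Wdr43, a part of the small-subunit processome, at 1272 and 82. Not kept were 8, among them Wdr74 (I-BET rank 866), the nucleolar factor Surf6 (1642) and Ltv1 (2972), needed for export of the small subunit. Noc2l, at I-BET rank 349, is counted with them although its I-BET peak met a combination peak beyond the window. Of 64 cytosolic ribosomal protein genes 47 were kept (73.4%). Rps12, a protein of the small subunit, lay at the top combination peak, rank 1, and at I-BET rank 137. Rpl9 (1889), Rpl26 (2458) and Rpl15 (3343), all proteins of the large subunit, were not kept.

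Of 39 translation factor genes 28 were kept (71.8%), including the cap-complex scaffold Eif4g1 at combination rank 438 and I-BET rank 415 and the helicase Eif4a1 at 543 and 504, while Eif5b, which joins the ribosomal subunits, was not (2084). Of 32 tRNA synthetase genes 17 were kept (53.1%), with Farsb, a subunit of the phenylalanine enzyme, at 41 and 154. Of 25 chaperonin and HSP90 genes 15 were kept (60.0%), with Cct3 at 511 and 643, whereas Cct2, another subunit of the same cytosolic chaperonin, was not (1423). Of 39 splicing genes 26 were kept (66.7%), with the export helicase Ddx39b at 161 and 37, and of 33 nuclear pore and transport genes 24 were kept (72.7%), with the scaffold nucleoporin Nup85 at 13 and 106. Hnrnpu and Nup210, at I-BET ranks 142 and 601, count as not kept, but their I-BET peaks met a combination peak beyond the window. Proteasome genes were kept in 14 of 32 cases (43.8%), near the background of 37.1%.

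Metabolic lists differed from each other. Of 38 genes of nucleotide and one-carbon synthesis, with polyamine synthesis included, 26 were kept (68.4%), and these were nearly all high in the I-BET list. They were 24 of 25 in its first decile, beside 84.5% of all genes there, and 2 of 13 below it, beside 17.8%. Odc1, the rate-limiting enzyme of polyamine synthesis, stood at combination rank 470 and I-BET rank 31, Cad, which begins pyrimidine synthesis, at 228 and 208, Atic, which ends purine synthesis, at 651 and 177, and Shmt1, a serine hydroxymethyltransferase, at 430 and 214. Adsl (1161) was not kept, nor were Rrm2 (4668) and Tk1 (5874), enzymes of DNA precursor supply. Genes of mitochondrial biogenesis and import were kept in 30 of 42 cases (71.4%), such as the chaperonin pair Hspd1 and Hspe1, which share 1 peak, at 236 and 66. Respiratory chain genes were kept in 10 of 41 cases (24.4%), with a median I-BET rank of 7793. Ndufa4 had a high peak in both lists, at 21 and 33, while Cycs, which encodes cytochrome c (2849), was not kept. Of 25 glycolytic and pentose phosphate genes 15 were kept (60.0%), among them Slc16a1, a lactate transporter, at 507 and 209 and Hk2, a hexokinase, at 877 and 842.

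Cell cycle genes lay near the background, with 14 of 42 kept (33.3%) and a median I-BET rank of 6104.5. Kept were Cdk4 at combination rank 99 and I-BET rank 345, cyclin gene Ccne2 at 164 and 230, the replicative helicase gene Mcm7 at 937 and 292 and the mitotic kinase gene Aurka at 173 and 515. Another helicase subunit, Mcm6 (2537), the sliding clamp gene Pcna (2788) and Gins2 (3450), of the same replicative machinery, were not kept. In the first decile of the I-BET list 8 of 13 genes of this list were kept, beside 84.5% of all genes there.

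The network of MAX itself and other genes known for E-box control gave a mixed picture. Of 12 genes of the extended MYC and MAX network 6 were kept (50.0%). Mnt, a repressor partner of MAX, stood at 622 and 1164, Max at 364 and 1742, Mga, the scaffold partner, at 2889 and 2309, and Mlxip, a glucose-sensing relative, at 853 and 283. Not kept were the repressor partners Mxd1 (3677) and Mxi1 (7589), Mlx (10129) and Mycn (15312). Myc had 3 I-BET peaks at its ends, the best at rank 24327, and none was kept. Within 10 kb of Myc there were 0 combination peaks and 6 I-BET peaks, and 0 in either the untreated or the RANKL list. Circadian clock genes, whose own activators CLOCK and BMAL1 read the same E-box letters, were kept in 13 of 18 cases (72.2%). In the first decile 11 of 11 clock genes were kept, beside 84.5% of all genes there. The repressor genes Nr1d2, at 391 and 100, Ciart, at 131 and 139, and Nr1d1, at 847 and 243, were among the kept clock genes. Of 49 lysosomal and V-ATPase genes 29 were kept (59.2%), with 12 of 29 below the first decile, beside 17.8% of all genes there. All genes were kept in 40.4% of cases in the second decile and 14.8% in the third, and the list was not matched on rank. Lamp1 stood at 170 and 298 and the autophagy gene Map1lc3b at 571 and 489, while Becn1 (3412), Psap (3536), the precursor of the saposins, and Tpp1 (5353), a lysosomal peptidase, were not kept.

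Among genes of the BET proteins and of elongation 16 of 35 were kept (45.7%). Brd2, a target of the inhibitor, stood at 2481 and 1641. Hexim1, an inhibitor of the elongation kinase P-TEFb that is widely used as a marker of BET inhibition, had 3 I-BET peaks at its ends and no combination peak. The best of the 3 stood at rank 8570, in the third decile, where 14.8% of all genes were kept. Mepce and Larp7, which hold the 7SK RNA that carries HEXIM1, were kept, at 87 and 67 and at 1888 and 1382. Mepce shares its peak with its neighbour Zcwpw1.

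Of 22 regulators of osteoclast formation with an I-BET peak 10 were kept (45.5%). They were 7 of 7 in the first decile, beside 84.5% of all genes there, and 3 of 15 below it, beside 17.8%. Spi1, which encodes the macrophage and osteoclast factor PU.1, stood at combination rank 176 and I-BET rank 1231, with 2 combination peaks and 12 I-BET peaks within 10 kb. Mitf, a partner of PU.1 at osteoclast genes, stood at 2327 and 2133, the AP-1 gene Junb at 434 and 966 and Bhlhe40, a helix-loop-helix repressor, at 738 and 1149. The repressors of osteoclast formation Irf8 (7116) and Bcl6 (9882) were not kept at their ends. Within 10 kb there were 2 combination and 5 I-BET peaks at Irf8 and 0 and 8 at Bcl6. Nfatc1, the master factor of osteoclasts, had an I-BET peak at rank 11950 that was not kept, and it had 1 combination and 15 I-BET peaks within 10 kb. Id2, an inhibitor of helix-loop-helix factors (18877), was not kept and had 1 combination and 5 I-BET peaks within 10 kb.

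Few genes of the mature osteoclast were kept: 2 of 14 genes of resorption and fusion (14.3%), with an interval of 1.78% to 42.8% that includes the background of 37.1%. The 2 were Slc4a2, the bicarbonate and chloride exchanger, at 932 and 962, and Ostm1, the partner of CLCN7, at 4022 and 4444. Their list had a median I-BET rank of 11021, below that of all genes. Clcn7 (4894), the osteoclast proton pump subunit gene Tcirg1 (5928), the podosome gene Sh3pxd2b (6949) and the fusion-related tetraspanin gene Cd9 (9115) were not kept. Ctsk, the collagen-cutting protease of osteoclasts, and Acp5, their acid phosphatase, had no peak at an end in either list, and each had 1 combination peak within 10 kb, against 5 and 6 I-BET peaks.

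RANK signalling genes were kept in 11 of 31 cases (35.5%). The receptor gene Tnfrsf11a (9468) was not kept and had 0 combination and 9 I-BET peaks within 10 kb, and Traf6 (6392), its main adaptor, had 0 and 1. The adaptor gene Tyrobp stood at 1123 and 990, and the kinase gene Mapk8 at 1693 and 1345. Of 39 NF-kB and inflammation genes 14 were kept (35.9%), among them Birc2 at 1281 and 703, Irak4 at 544 and 777 and Nfkbiz at 2161 and 1097, while Nfkbia (3024), the feedback inhibitor, Ptgs2 (4553) and Map3k8 (4671) were not. Interferon and antigen presentation genes were kept in 11 of 42 cases (26.2%), with Irf2 at 696 and 665 and Irf9 at 2082 and 785.

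Regulators of the myeloid lineage were kept in 11 of 26 cases (42.3%), with Stat3 at 203 and 1002, Klf4 at 678 and 118 and Cebpa at 762 and 664. In the first decile 7 of 7 of these regulators were kept, beside 84.5% of all genes there. Receptors of the macrophage surface were kept in 6 of 23 cases (26.1%), with a median I-BET rank of 12203. Itgb2, a leukocyte integrin chain, stood at 834 and 894, while the growth factor receptor genes Csf2rb (6512) and Csf2ra (7850) were not kept. Histone demethylases of the JmjC and related families were kept in 7 of 19 cases (36.8%), and genes of MiT/TFE and USF factors in 5 of 11 (45.5%). Genes of other cell types mostly had no I-BET peak. Of those that did, 0 of 5 neuronal genes, 0 of 5 hepatocyte genes and 0 of 3 fibroblast and osteoblast genes were kept, and 4 of 7 lymphocyte genes, 2 of 6 neutrophil and dendritic cell genes and 4 of 7 germ cell genes were.

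**Figure D4:**
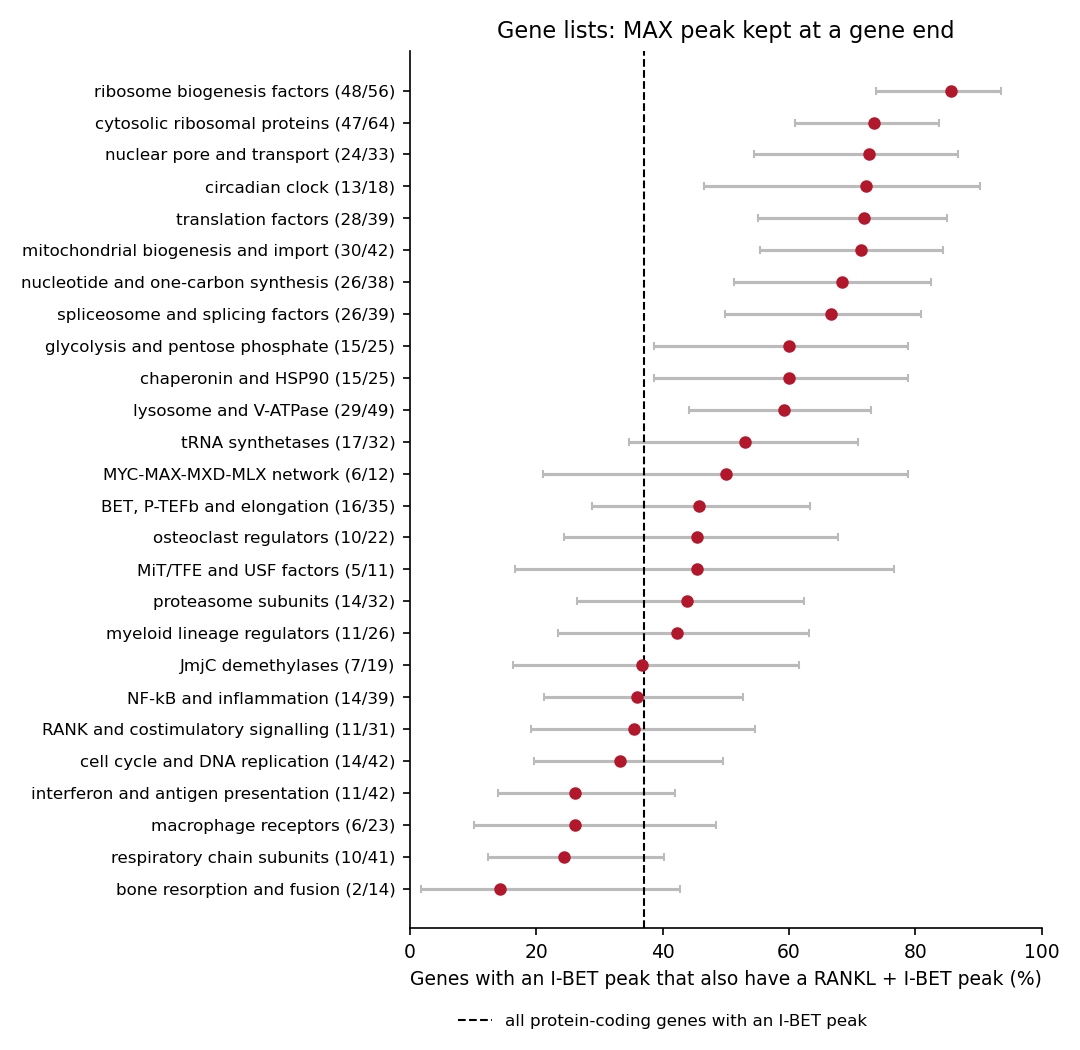
Genes of each list with a RANKL and I-BET peak within 1 kb of an end, as a share of those with an I-BET peak there (horizontal axis, %, with exact 95% intervals and counts beside the names), for lists with at least 10 such genes. The dashed line is the background of 37.1%; ribosome biogenesis lies highest at 85.7% and bone resorption and fusion lowest at 14.3%.

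The lists differ in how high their I-BET peaks ranked, and the kept share went with it: the median I-BET rank was 1178.5 for ribosome biogenesis, 1980 for ribosomal proteins, 7793 for the respiratory chain and 11021 for resorption and fusion. Below the first decile, where 17.8% of all genes were kept, the counts were 8 of 12 for ribosome biogenesis, 10 of 18 for mitochondrial biogenesis, 7 of 15 for glycolysis, 12 of 29 for lysosomes, 6 of 17 for ribosomal proteins, 4 of 33 for the respiratory chain and 1 of 13 for resorption and fusion. In other lists they were 5 of 11 for translation factors, 5 of 13 for nuclear pore and transport, 3 of 6 for lymphocyte markers and 2 of 6 for neutrophil and dendritic cell markers. They were 5 of 35 for interferon and antigen presentation and 2 of 13 for nucleotide synthesis, and the remaining lists are not given here. All genes were kept in 40.4% of cases in the second decile and 14.8% in the third, and list ranks were not matched. Whether a list departs from what its ranks alone give was not tested.

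The E-box of the printed promoters was then counted over all 21263 RefSeq promoter windows, from 250 bases before to 50 bases after a start. CACGTG, which reads the same on both strands, was found in 20.8% of 3427 windows under both a combination and an I-BET peak (interval 19.5% to 22.2%), in 6.42% of 6305 windows under an I-BET peak alone, in 4.72% of 11096 windows with no I-BET peak and in 7.84% of all windows. The variant CACGCG, read also as CGCGTG on the other strand with any overlap of both counted once, was found in 29.9%, 14.7%, 5.13% and 12.1% of windows in the same order. A further 435 windows lay under an I-BET peak whose combination peak missed the window. Windows with 2 or more copies of CACGTG made up 3.03%, 0.349%, 0.297% and 0.748%.

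Other motifs differed less between both kinds of bound window. On either strand CCGGAAG, the ETS core, was found in 23.8% of windows under both peaks, 20.3% under an I-BET peak alone and 11.6% of all windows. GGGCGG, the GC box, was found in 73.3%, 66.8% and 46.2%, CATGTG, another E-box, in 8.23%, 7.30% and 11.5%, and TGACTCA, the AP-1 element, in 2.60%, 3.49% and 4.66%. The windows also differed in base composition, with a median G and C content of 64.7% under both peaks, 60.7% under an I-BET peak alone and 56.3% over all windows, and its part in the motif counts was not tested.

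Among windows under an I-BET peak those with CACGTG were kept more often than those without it in the first and second deciles of the I-BET list. The 435 windows whose combination peak missed the window are left out of these shares. Ranks within a decile were not matched between windows with and without CACGTG, and their part in the shares was not tested. Over all ranks 713 of 1118 windows with CACGTG were kept (63.8%) and 31.5% of windows without it. In the first decile of the I-BET list the shares were 92.8% and 82.3%, in the second 55.7% and 35.3%, and in the third 18.0% and 12.1%. The intervals were 90.4% to 94.7% and 80.6% to 83.9% in the first decile, and 48.8% to 62.3% and 33.2% to 37.5% in the second. In the third they were 11.7% to 25.7% and 10.5% to 13.8%. These intervals cover counting error only, and windows of neighbouring starts can share a peak and its letters, as at Apex1 and Osgep. In the fourth decile the shares were 10.6% and 4.7%, and in the fifth the order was the other way round, with 0 of 30 windows with CACGTG kept and 2.42% of those without it. With CACGCG the shares were 87.7% and 83.2% in the first decile, 42.1% and 36.2% in the second and 1.15% and 2.49% in the fifth. Most kept windows nevertheless had no CACGTG, and a match to these letters is a description of the window and not a site of binding.

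**Figure D5:**
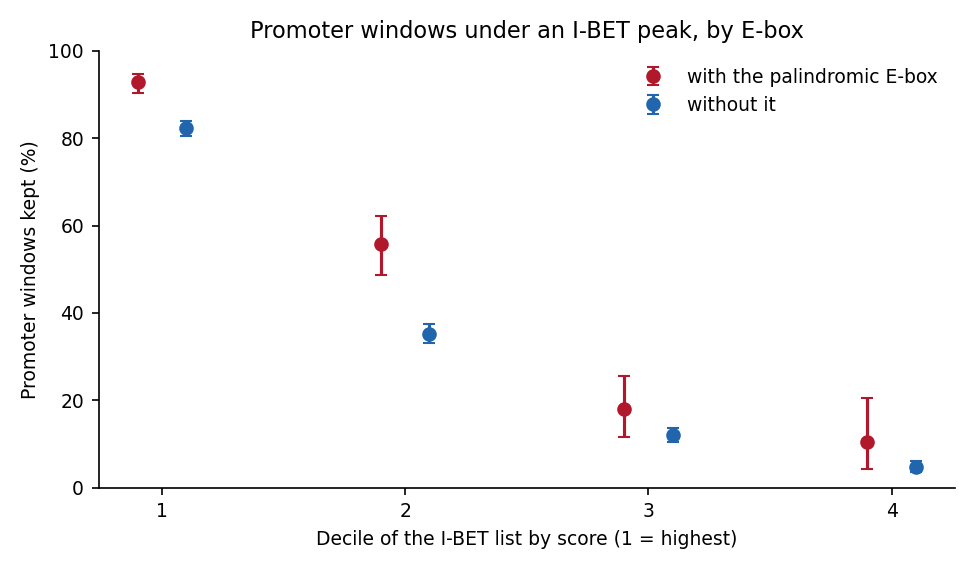
Share of promoter windows under an I-BET peak that also had a RANKL and I-BET peak (vertical axis, %, with exact 95% intervals), by decile of the ranked I-BET list (horizontal axis), for windows with (red) and without (blue) the palindromic E-box. Windows under an I-BET peak whose combination peak missed the window are left out. In the first decile the shares were 92.8% and 82.3% and in the second 55.7% and 35.3%.

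Chromosome X had a lower kept share than any autosome. There 41 of 544 I-BET peaks were kept (7.54%), against 14.8% to 19.1% on each of the 19 autosomes, and on chromosome Y 1 of 19 was kept. Without the sex chromosomes the kept share was 16.5%.

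Non-coding genes with an I-BET peak within 1 kb of an end were kept in 51 of 114 cases for snoRNAs (44.7%), 31 of 78 for snRNAs (39.7%), 65 of 212 for tRNAs (30.7%), 55 of 194 for miRNAs (28.4%), 721 of 2562 for lncRNAs (28.1%) and 33 of 352 for pseudogenes (9.38%). Many of these genes lie inside or beside protein-coding genes and share their peaks, so the counts are not independent of those given above.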

How the data were processed

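Peak lists of MAX ChIP-seq in RAW264.7 cells were compared, 1 per treatment. Per the labels, cells were fixed with 1% formaldehyde for 15 min and sequenced as single-end 50 bp reads. The submitters' processing notes name the build mm10, the aligner Bowtie2 2.3.4.1, the caller MACS2 2.1.1.20160309 and FastQC. Neither thresholds nor the role of input are stated there. The deposited score in column 5 is the authors' own value per peak, and it served only to rank peaks within a list. Each row joins calls of 3 sets, numbered 3, 5 and 7, whose nature is not stated. The highest call numbers were 9414, 9483 and 7892 in the combination list and 43064, 38167 and 38194 in the I-BET list. The treatment protocol speaks of replicates, but 1 library is listed per antibody and treatment.

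Starts were raised by 1, following the BED convention. Gene ends came from RefSeq (GRCm38.p6) without strand, so a window of 1 kb on either side of both ends stands for the promoter, and it can hold a 3′ end. A peak between neighbours counts for both. RefSeq starts with strand were known for 17492 of 21887 genes, none on chromosome 18. Rank ties were broken by position. Named genes are those at the 10 highest-ranked peaks of each kind, up to 4 kept and 4 not kept members per list, and chosen regulators. The text gives part of the 269 genes this yields, picked with their values known, and some are not reported here. The genes of the printed promoters were chosen from these after their values were seen. All members and the 32 gene lists (1064 genes, all matched) were chosen with earlier results of these data known, and no list was tested. The overlap code was tested on simulated data and had 0 differences from bedtools 2.31.1. Python 3.11.15, pandas 2.3.3, scipy 1.17.1 and matplotlib 3.10.9 were used.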

Additional observations from a re-analysis of the deposited data

How the results depend on the processing

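No paired analysis was possible because each treatment has 1 MAX library. With reciprocal overlap of at least 50% the kept share of I-BET peaks was 7.17%, the share of combination peaks in the I-BET list 41.8%, the share of kept peaks at gene ends 45.6% and the median width of kept peaks 708 bp. With as many top-ranked I-BET peaks as combination peaks these were 68.6%, 72.1%, 68.3% and 1040 bp, and 69.6% of genes were kept. With the upper 50% of each list by score 97.7% of combination peaks lay in the I-BET list and 23.2% of genes were kept. Windows of 0.5 and 2.5 kb gave 36.0% and 38.2% of genes, and 55.8% and 64.4% of kept peaks at gene ends. Counting a gene when the same I-BET peak was overlapped gave 38.2%. Leaving out peaks under 100 bp changed nothing, as no peak is so narrow, and leaving out the sex chromosomes or using RefSeq starts (chosen after the data were seen) left the shares within their intervals. In each alternative for width or gene ends, kept peaks were wider and lay at gene ends more often than the others, by 1040 against 856 bp and 68.3% against 64.3% in lists of equal length. The cause of these shifts was not tested. Of 269 genes under the naming rule 262, 257 and 261 kept their state with 0.5 kb, 2.5 kb and equal list lengths, 259 with the same peak overlapped and 245 with the upper 50% of each list, where 24 were lost, Ostm1 among them. Among those that changed, Pcna, Atp5h, Id2 and Id3 counted as kept at 2.5 kb, and Mcm7, Tyrobp, Wars2 and Fcgr3 as not kept at 0.5 kb. With equal lengths the kept members of 5 of 32 lists moved by over 1.5 times, for instance to 9 cell cycle and 7 myeloid genes. With 1 library a side, no difference has a replicate check, and the depth behind each list is unknown.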

Other observations

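Among protein-coding genes, those with 3 or more I-BET peaks at their ends were kept in 43.5% of cases, those with 2 in 41.7% and those with 1 in 35.4%.

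In the MAX list of untreated cells 58.9% of 8839 peaks overlapped a combination peak and 97.5% an I-BET peak. In the MAX list of RANKL cells these shares were 51.2% and 96.9% of 10889 peaks.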
